A study of Mus musculus with 69 samples.

Results

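The cells were cultured endothelial cells (EC) from mouse hearts, exposed for 24 h to all stressors combined (ALL) and compared with EC kept without stressors (Control). The members were the ALL and Control libraries of the endothelial count table that shared a sample group, called a set here, and they were the 18 libraries of sets 9 and 11 to 18, or 9 pairs, out of 69 libraries in the series. No Control library of set 10 was analysed here, so that its ALL library had no partner. The study asked how metabolic and humoral stressors that accompany obesity act, alone and together, on vascular cells, and it measured poly(A) RNA by sequencing in EC and in aortic vascular smooth muscle cells (VSMC) with and without the EGF receptor gene Egfr.

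All 18 libraries came from male C57BL/6 mice whose endothelial cells were labelled WT, and no age was given in the labels. ALL stood for glucose at 20 mM together with 100 µM of free fatty acids, angiotensin II at 30 nM and 300 nM of a catecholamine. The labels call this catecholamine epinephrine and shorten it to NA, whereas the study's methods name norepinephrine, and they give the fatty acid dose for oleate and for palmitate each. HG + FFA was the glucose and fatty acids alone, and AII + NA the angiotensin II and catecholamine alone. Control and stressor media contained albumin, the carrier of fatty acids. The cells had been freed of CD45-positive leukocytes, selected with CD31 beads and grown on fibronectin before the exposure, so that they were passaged cells and not endothelium in place. Sets 17 and 18 came from a single animal, which left 8 animals in the 9 pairs.

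Fatty acids that enter an endothelial cell can bind peroxisome proliferator-activated receptors (PPAR), nuclear receptors that pair with RXR and switch on genes for fatty acid transport, storage and oxidation. Liver X receptors (LXR) sense oxysterols and switch on cholesterol export. Angiotensin II and norepinephrine act on G protein-coupled receptors at the cell surface, which in vessels are best known for driving smooth muscle contraction. Heart capillary endothelium passes fatty acids on to cardiomyocytes, the main consumers of fatty acids in that organ.

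The 18 libraries held between 18903950 and 43240489 counted reads, with a median of 24904590. Levels are given in FPM, the TMM-normalized counts of edgeR scaled to a common library size, and sums over several genes in the same unit. The label was checked with 25 endothelial identity genes, which stood apart in 3 sets. Their summed level lay between 422 and 605 FPM in the Control and ALL libraries of sets 9, 11 and 13 and between 1622 and 8202 FPM in the other 6 sets. Pecam1, which encodes CD31 itself, was at 17.8 to 44.3 FPM in these 3 sets and at 255.7 to 1892 FPM in the others. Kdr, the main VEGF receptor, did not exceed 27.5 FPM and Nos3, the endothelial nitric oxide synthase, did not exceed 12.7 FPM in any of the 18 libraries. The same 3 sets had the highest summed smooth muscle and pericyte markers, at 1634 to 4946 FPM against 425 to 1490 FPM in the other 6. Their fibroblast sums were 7251 to 36037 FPM, against 1514 to 17022 FPM in the other 6, so that these ranges overlapped. Over all 9 sets the sum of 13 fibroblast marker genes was between 2492 and 31093 FPM in Control, with a median of 7328, and between 1514 and 36037 FPM under ALL, with a median of 6839. It was lower under ALL in 8 of the 9 sets and higher in set 11, with a median log2 ratio of -0.26, whereas the endothelial sum was higher under ALL in 5 sets and lower in 4. The leukocyte gene Ptprc did not exceed 0.979 FPM. The sum of 10 leukocyte markers, however, was 14.1 to 136.9 FPM in Control and 18.8 to 133 FPM under ALL. The adipocyte markers together did not exceed 1.3 FPM. Sets 15 and 16 were labelled WT in EC but shared animal numbers with VSMC libraries labelled as Egfr knockout, and their Egfr level lay between 2.19 and 8.49 FPM against 10.8 to 44.1 FPM in sets 12, 14, 17 and 18 and 137 to 164 FPM in sets 9, 11 and 13.

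**Figure D1:**
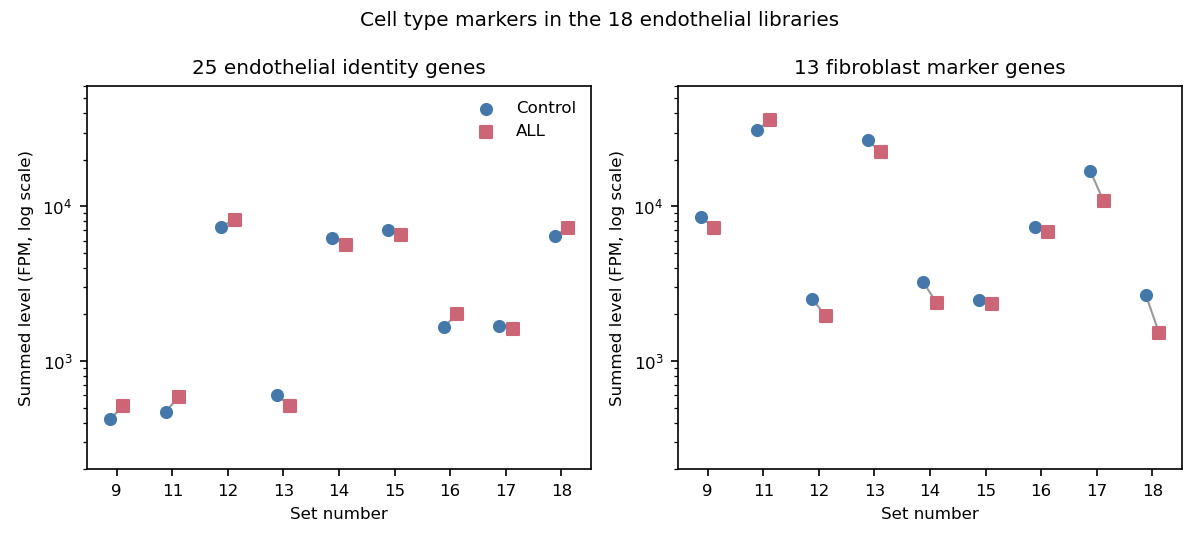
Summed levels (FPM, log axis) of 25 endothelial identity genes (left) and 13 fibroblast marker genes (right) in the Control (circles) and ALL (squares) library of each set, joined by a line. The endothelial sum of sets 9, 11 and 13 did not exceed 605 FPM, and the fibroblast sum was lower under ALL in every set but 11.

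Exposure to ALL changed a small part of the genes, and the lipid gene Angptl4 and the proliferin gene Prl2c2 were among the largest rises. Of 17148 genes tested, 110 were differentially expressed (DEG), or 0.641%, of which 38 were higher (0.222%) and 72 lower (0.42%) than in Control. Genes were called if they were protein-coding or lncRNA genes, passed an FDR of 0.05 in both edgeR and DESeq2, moved by 0.64 or more on the log2 scale (log2FC) and averaged 3 FPM or more in either group. Without the size and level limits, edgeR alone had 546 genes under that FDR (3.18%), 196 of them higher (1.14%) and 350 lower (2.04%). The largest rise was 3.22 and the largest fall -1.63 on the log2 scale, and the median of all genes tested was -0.01. Of the 17148 genes, 8113 had a positive log2FC and 9035 a negative one. Of the 110 DEG, 62 moved the same way in all 9 pairs, 30 of them up and 32 down. Over all 12298 genes with at least 3 FPM, 2.72% moved the same way in all 9 pairs. The DEG were selected by a test on these same pairs, which favours such agreement among them. In none of the DEG were the 9 Control levels separate from the 9 ALL levels. Each change is read within pairs, with the set as a block in the model. Without sets 9, 11 and 13 the count was 117, with 44 higher and 73 lower and 74 of the 110 among them. In that fit all 110 kept their direction and 75 also had an edgeR FDR under 0.05. Kept directions are favoured, because the 110 were selected with the remaining sets included. Without sets 15 and 16 the count was 97, with 38 higher and 59 lower and 74 shared.

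Among the 38 higher DEG the largest rise was that of Angptl4, a target of the PPAR. Of 16 tested genes on the list of lipid-sensing PPAR targets, 9 were called higher and none lower, with a median log2FC of 0.96 over the 16, or 1.01 without sets 9, 11 and 13. Among them were Angptl4, Ucp2, Fabp4, Pdk4, Acot1, Ech1, Plin2 and Cpt1a. The list and the other lists below were chosen with earlier results of these data known, so their counts are descriptions and no set test was made.

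Angptl4 (ENSMUSG00000002289, GRCm39 chr17:33992724-34000804, minus strand) encodes a secreted inhibitor of lipoprotein lipase, the enzyme that frees fatty acids from circulating triglycerides. Its levels in the 9 Control libraries were 4.18 FPM at the lowest, 14.9 at the median and 463 at the highest, and under ALL they were 109.9, 192 and 1037 FPM. The libraries of sets 9, 11 and 13 were the highest in both groups, and the Control library of set 11 exceeded the ALL libraries of the other 8 sets. Within pairs the log2 ratio of ALL to Control ran from 1.16 in set 11 to 4.95 in set 14. The fitted rise was 9.34-fold, with a log2FC of 3.22 ± 0.31 (SE, 9 pairs, FDR = 2.86e-08), and without sets 9, 11 and 13 the log2FC was 3.83.

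Pdk4, a kinase that shuts pyruvate out of the mitochondrial citrate cycle, went from 52.4, 107 and 323 FPM in Control (lowest, median and highest, as for all genes that follow) to 80.2, 259 and 397 FPM under ALL. This was a log2FC of 1.11 ± 0.13 with 9 of 9 pairs higher, although the highest Control library exceeded most ALL libraries. None of the other 12 tested genes of the pyruvate dehydrogenase complex and its kinases was called.

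Cpt1a, which loads long-chain fatty acids onto carnitine for entry into mitochondria, was at 137, 193 and 229.9 FPM in Control and at 226, 313 and 378 FPM under ALL. Only the highest Control library exceeded the lowest ALL library, and the rise was 1.66-fold (log2FC 0.73 ± 0.07, FDR = 3.54e-08). Ech1, an isomerase that prepares unsaturated fatty acids such as oleate for beta oxidation, went from 80.3, 103 and 138 FPM to 137, 205 and 277 FPM. Here, too, the groups overlapped only in that the highest Control library stood just above the lowest ALL library. Its log2FC was 0.95 ± 0.07, the smallest FDR among the PPAR targets (FDR = 5.54e-11), and every pair rose by between 0.70 and 1.16 on the log2 scale.

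Plin2 and Lipe, which act on stored lipid, rose as well. Plin2 coats lipid droplets and was at 39.1, 72.6 and 91.1 FPM in Control and at 78.7, 113 and 287 FPM under ALL. The log2FC was 0.91 ± 0.14 (FDR = 0.000104) with 9 of 9 pairs higher, and 3 Control libraries exceeded the lowest ALL library. Lipe, the hormone-sensitive lipase that splits stored diglycerides, went from 7.92, 12.9 and 18.1 FPM to 13.2, 23.8 and 33.8 FPM, a log2FC of 0.89 ± 0.11, with 22.3% of its exon length shared with another gene. The 2 were the only genes called among 15 tested lipid droplet genes, whose median was 0.05.

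A promoter stretch of Plin2 is shown because it was the only one among the called PPAR targets with a match to the PPAR-RXR direct repeat. The repeat searched was AGGTCA, 1 free base and AGGTCA again, on both strands with up to 2 mismatches over its 12 fixed letters, in windows from 250 bases before to 50 bases after the gene start (RefSeq, GRCm38.p6). Of the 9 called targets 6 had such a window and 1 held the repeat, against 3.86% of 32851 promoter windows. The stretch lies 245 to 146 bases before the start of Plin2, at chr4:86670205-86670304 on the minus strand, with the repeat, which reads on the opposite strand, in capitals.
Plin2: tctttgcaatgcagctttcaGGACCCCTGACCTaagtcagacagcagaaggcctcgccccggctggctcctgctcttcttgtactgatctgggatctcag
In the wider GRCm39 sequence of 5000 bases either side of the annotated starts, 0 of the 9 called targets held the repeat with at most 1 mismatch, against 20.5% of 13626 windows. These are matches of letters only, and binding was not measured.

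The fatty acid binding protein Fabp4 was at 0.331, 1.89 and 106 FPM in Control and at 1.05, 9.98 and 187 FPM under ALL. The groups overlapped widely, since 3 sets stood far above the others in both groups, but 9 of 9 pairs rose, with a log2FC of 1.61 ± 0.27 (FDR = 0.0003). Acot1, a thioesterase that splits long-chain acyl-CoA, rose in 8 of 9 pairs (0.97 ± 0.18), and the uncoupling protein gene Ucp2 rose in 9 of 9 from a low level, with medians of 1.3 and 3.38 FPM (1.95 ± 0.35). Of the exon length of Fabp4, 24% was shared with another gene, and of that of Ucp2, 18%. The fatty acid translocase Cd36 is given as a value only, because it had an edgeR log2FC of 3.19 ± 0.82 (FDR = 0.0247) but a DESeq2 FDR of 0.187. It reached 71.8 FPM under ALL in set 12 and 19.8 FPM in set 14 and stayed at 0.907 FPM or less under ALL in the other 7 sets, and without set 12 its log2FC was 1.81 (FDR = 0.285).

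**Figure D2:**
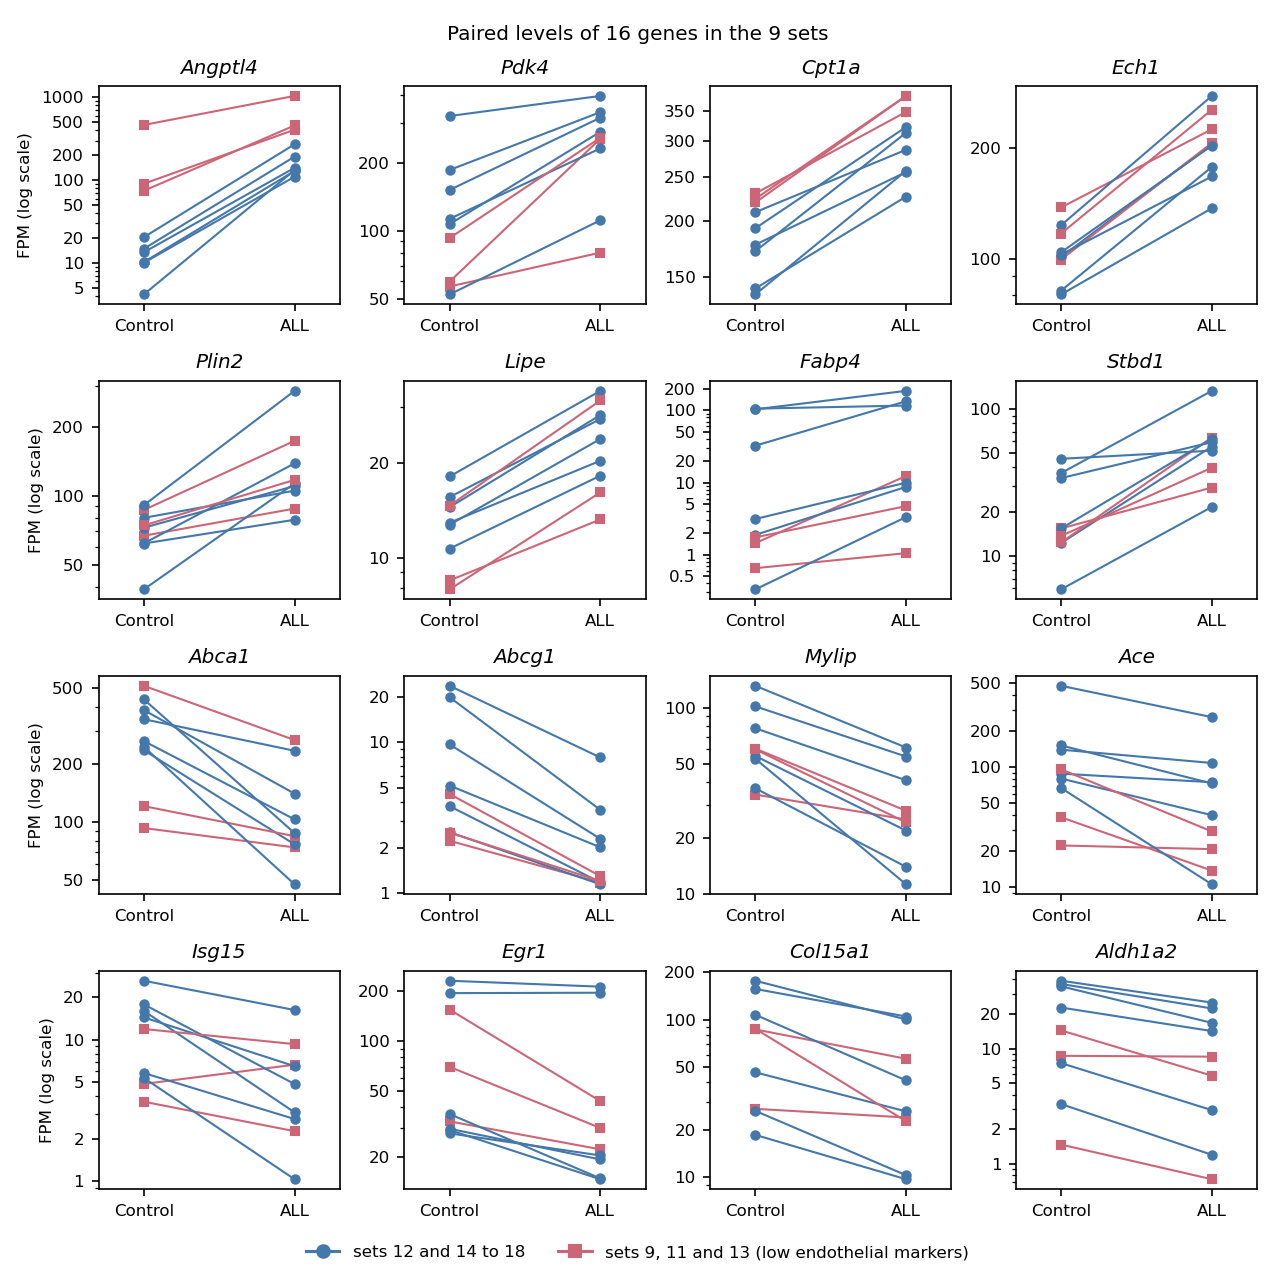
Levels (FPM, log axes) of 16 genes in the Control and ALL library of each set, with a line per pair and sets 9, 11 and 13 as squares. The lines of Angptl4, Cpt1a and Ech1 rise in all 9 sets and those of Abca1, Abcg1 and Mylip fall in all 9, while the sets differ in height.

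The oxidation pathway beyond Cpt1a moved by less than the size limit. Of 22 tested genes of the carnitine shuttle and mitochondrial beta oxidation, 1 was called higher, 7 had an edgeR FDR under 0.05 with a positive log2FC and 1 with a negative one, and the median was 0.12. Slc25a20, the carnitine-acylcarnitine translocase, had a log2FC of 0.46 ± 0.07, Acadl, the long-chain acyl-CoA dehydrogenase, 0.58 ± 0.07 and Acaa2, the thiolase of the last step, 0.61 ± 0.07, each with 9 of 9 pairs higher. Of 18 peroxisomal oxidation genes 5 had an FDR under 0.05, all with a positive log2FC, and only Ech1 was called. The receptors were not called: of 11 genes for PPAR, their partners and coactivators 0 were, with a median of 0.01. Ppard was at 30.9 FPM in the median Control library and 34.9 FPM under ALL, Pparg at 8.20 and 9.89 FPM, and Ppara at 0.639 and 0.433 FPM.

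Genes of cholesterol export moved the other way. Of 11 tested LXR target genes 3 were called lower and none higher, and the median was -0.27. Abca1 (GRCm39 chr4:53030787-53159900, minus strand), which passes cholesterol to apolipoprotein A-I, was at 93.0, 265 and 516 FPM in Control and at 47.2, 87.5 and 268 FPM under ALL. It was lower in 9 of 9 pairs, by the least in set 11 (log2 ratio -0.34) and by the most in set 14 (-2.39), and the groups overlapped. The fall was 2.38-fold (log2FC -1.25 ± 0.16, FDR = 7.99e-06).

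Abcg1, which exports cholesterol to mature HDL, went from 2.23, 4.55 and 23.8 FPM to 1.14, 1.3 and 7.94 FPM, a fall of 3.11-fold with 9 of 9 pairs lower (log2FC -1.63 ± 0.20, FDR = 4.18e-06). It was the DEG with the largest fall. Mylip (GRCm39 chr13:45543215-45565501, plus strand), a ubiquitin ligase that degrades the LDL receptor, went from 34.2, 59.8 and 131 FPM to 11.3, 25.1 and 61.2 FPM (log2FC -1.21 ± 0.11, FDR = 3.89e-09), and again all 9 pairs were lower while the groups overlapped. Srebf1, which drives fatty acid synthesis, had a log2FC of -0.54 ± 0.11 and Apoe, a lipoprotein component, -0.51 ± 0.13, both under the FDR threshold and short of the size limit. The FDR of Apoe passed the threshold in 6 of the 9 fits that left out a set and was highest without set 13 (FDR = 0.12). The desaturase Scd2 was the only gene called among 16 of fatty acid synthesis, at 244, 409.8 and 692 FPM in Control and 108, 216 and 458 FPM under ALL (-0.82 ± 0.15).

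The sequence around the LXR-type repeat near Mylip is printed as the only such match near a called LXR target. Within 5000 bases of the annotated starts, AGGTCA, 4 free bases and AGGTCA again, on either strand and with at most 1 mismatch, were present for 1 of the 3, against 9.81% of 13626 windows. This motif was added after the gene values had been seen. It lies 2459 bases before the start of Mylip, outside the gene, at GRCm39 chr13:45540742-45540769, and is printed on the minus strand with the repeat in capitals.
Mylip: aacttgAGGTCATTGTAGGTTAagtagg

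Of 23 tested genes of cholesterol synthesis and uptake 0 were called, 0 had an FDR under 0.05, 20 had a positive log2FC and the median was 0.20, or 0.04 without sets 9, 11 and 13. Insig1, the sterol sensor that holds back synthesis, was at 72.3 FPM in the median Control and 108 FPM in the median ALL library, with a log2FC of 0.33 ± 0.11 (FDR = 0.11). Although the glucose concentration had been raised, of 23 genes of glucose transport and glycolysis 0 were called and 1, Pgk1, had an FDR under 0.05, and of 7 targets of the glucose sensors MondoA and ChREBP 0 were called. Txnip, the best known of these, was at 633 FPM in the median Control library and at 520.2 FPM under ALL (-0.27 ± 0.09, FDR = 0.089). Of 13 glycogen genes Stbd1, which tethers glycogen to membranes, was called higher. Its levels went from 5.91, 15.4 and 45.7 FPM to 21.5, 55.4 and 133 FPM in 9 of 9 pairs (1.52 ± 0.17, FDR = 3.07e-07). Ppp1r3c, a glycogen-targeting subunit of protein phosphatase, was called lower at -0.88 ± 0.22, and without set 18 the value was -0.58 (FDR = 0.054).

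**Figure D3:**
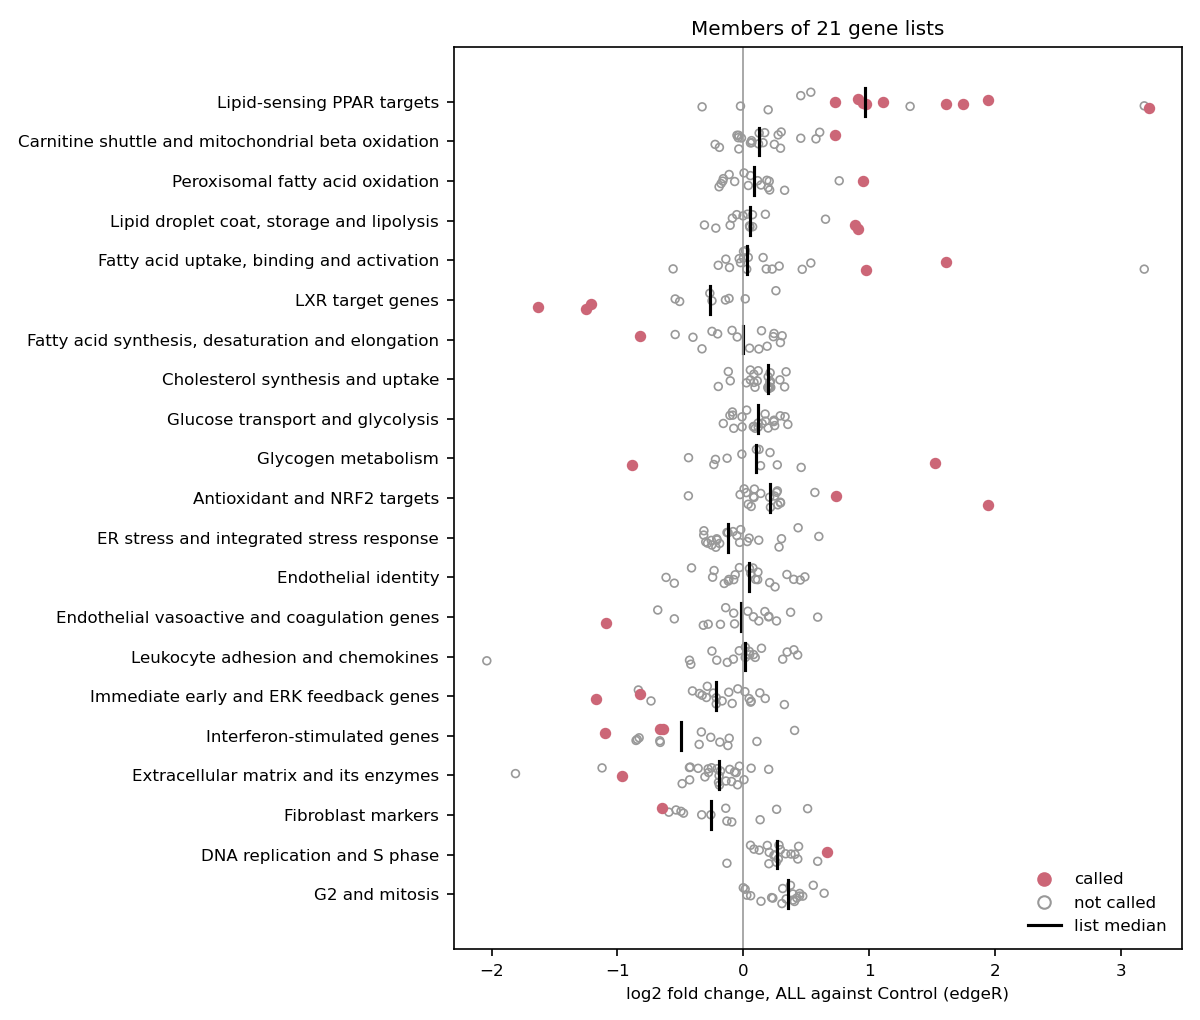
The log2FC (ALL against Control) of every tested member of 21 gene lists, with called genes filled, genes not called open and the median of each list as a black bar. The median of the PPAR targets lies at 0.96 and that of the interferon-stimulated genes at -0.50, and all genes tested had a median of -0.01.

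Of 23 tested endothelial identity genes 0 were called, the median was 0.05, and Emcn (0.40 ± 0.08, FDR = 0.00339) and Flt1 (-0.41 ± 0.08, FDR = 0.00227) passed the FDR threshold without the size. Pecam1 had a log2FC of -0.15 ± 0.07 (FDR = 0.30) and Cdh5, the junction cadherin, 0.10 ± 0.10 (FDR = 0.68). Among 18 vasoactive and coagulation genes Ace was called. It encodes the angiotensin-converting enzyme, with 17% of its exon length shared with another gene, and it was at 22.3, 88.4 and 476 FPM in Control and 10.6, 39.9 and 261 FPM under ALL. Each of the 9 pairs was lower, from -0.10 in set 11 to -2.65 in set 18, and the fit gave -1.09 ± 0.17 (FDR = 0.000104). With the animal as the block in place of the set the FDR was 0.12.

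Ramp2, which turns the calcitonin receptor-like receptor into the adrenomedullin receptor, was chosen after its values had been seen. Its levels of 0.893, 26.5 and 223 FPM in Control became 0.754, 13 and 153 FPM, lower in 9 of 9 pairs (-0.79 ± 0.14), with 28.5% of its exon length shared. Of 19 genes of leukocyte adhesion and chemokines 0 were called and the median was 0.02, and Vcam1, an adhesion molecule for leukocytes, was at 891 and 832 FPM in the median libraries (0.05 ± 0.10). Of 23 genes of the ER stress response 0 were called and the median was -0.12.

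Antioxidant genes had 2 calls among 21 and a median of 0.21, and these were Ucp2 and Hmox1. Hmox1, the heme oxygenase, went from 22.9, 58.6 and 158 FPM to 46.3, 96.9 and 182 FPM in 9 of 9 pairs (0.74 ± 0.14, FDR = 0.00243). Tfrc, the transferrin receptor of iron uptake, rose in 9 of 9 pairs as well (0.75 ± 0.13) and was chosen after its values had been seen.

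Of 16 tested interferon-stimulated genes, 3 were called lower and none higher, 14 had a negative log2FC, and the median was -0.50. Isg15, a ubiquitin-like protein of the antiviral response, was at 3.66, 12 and 26.2 FPM in Control and at 1.03, 4.88 and 16.3 FPM under ALL. It was lower in 8 of 9 pairs and higher in set 11 (log2 ratio 0.44), and the log2FC was -1.10 ± 0.24 (FDR = 0.00743). Exons of other genes cover 31.1% of its length. Irf7, a transcription factor of the interferon response, had -0.66 ± 0.17 (FDR = 0.0273), and Oasl2, a relative of the antiviral oligoadenylate synthetases, -0.64 ± 0.15 (FDR = 0.0156). The call for Irf7 was lost in 5 of the 9 fits that left out a set, and Ifit2 stood against the rest with 0.41 ± 0.09 (FDR = 0.00743).

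Isg15 is the gene of the 3 whose promoter window held the core of the interferon response element (TTTC, 2 free bases and TTTC), searched on both strands without mismatch and added after the values had been seen. It was found in 3.44% of 32851 promoter windows. The 100 bases before the start are printed (GRCm38.p6 chr4:156200819-156200918, minus strand), with 3 overlapping matches, all on the opposite strand, in capitals.
Isg15: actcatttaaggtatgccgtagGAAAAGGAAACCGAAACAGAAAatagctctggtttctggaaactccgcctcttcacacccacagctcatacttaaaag

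Of 23 immediate early and ERK feedback genes, which report recent growth factor signals, Egr1 and Egr3 were called lower and none higher, with a median of -0.21. Egr1 went from 27.8, 36.4 and 232 FPM to 14.7, 22.3 and 214 FPM. Sets 12 and 14 were the highest in both groups and hardly moved, set 13 went from 155 to 43.6 FPM, 8 of 9 pairs were lower, and the fit gave -0.82 ± 0.15 (FDR = 0.00106). Egr3 had -1.17 ± 0.33 (FDR = 0.0393) with all pairs lower, and its call was lost in 7 of the 9 fits that left out a set. Klf15 (-0.66 ± 0.13) and Klf11 (0.72 ± 0.10), factors of the same zinc finger family, were called in opposite directions and were chosen after their values had been seen.

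Of 27 tested genes of the extracellular matrix 1 was called lower and none higher, 10 had an FDR under 0.05 with a negative log2FC and none with a positive one, and the median was -0.20. Col15a1, a basement membrane collagen, was at 18.6, 86.7 and 177 FPM in Control and 9.72, 26.2 and 105 FPM under ALL, lower in all 9 pairs (-0.96 ± 0.13, FDR = 7.99e-06). Of 13 fibroblast markers Col1a2 was called lower (-0.64 ± 0.16, FDR = 0.0186) and Col3a1 had -0.48 ± 0.11, and the median of the list was -0.26. Col1a2 ran from 25.2 to 11942 FPM over the Control libraries and from 10.0 to 13506 FPM under ALL, and its call was lost in 2 of the 9 fits that left out a set, with -0.43 (FDR = 0.0778) without set 18. Eln, the elastin gene, chosen after its values had been seen, had -0.89 ± 0.25 (FDR = 0.0397), and its call was lost in 5 of the 9 fits that left out a set, with -0.64 (FDR = 0.155) without set 18. The fibroblast marker sum was lower in 8 of the same 9 sets. In a bulk library fewer cells of a type and less RNA per cell cannot be told apart, and the part of the fibroblast sum in these matrix changes was not tested.

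Several further genes that rose or fell belong to no list above. Slc43a3, a purine nucleobase transporter, rose from 44.9, 87.7 and 204 FPM to 125, 183 and 372 FPM in 9 of 9 pairs (1.15 ± 0.09, FDR = 4.91e-10). Aldh1a2, which makes retinoic acid and was chosen after its values had been seen, fell from 1.48, 14.4 and 38.8 FPM to 0.740, 8.54 and 25.1 FPM in 9 of 9 pairs (-0.91 ± 0.12). Aldh1a1, which also makes retinoic acid, had 0.41 ± 0.09 (FDR = 0.00987), short of the size limit. Dhrs3, which turns retinal back into retinol, rose (0.80 ± 0.11), as did Cyp26b1, which breaks retinoic acid down (0.87 ± 0.13), and of these only Cyp26b1 was named by the rule. Tgm2, a transglutaminase with 21% of its exon length shared, rose by 0.86 ± 0.14. With the animal as the block the FDR was 0.231 for Aldh1a2, 0.182 for Cyp26b1 and 0.25 for Tgm2.

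The proliferin genes Prl2c2 (3.18 ± 0.44) and, named after its values had been seen, Prl2c3 (2.88 ± 0.50) had rises near that of Angptl4, but they are near-identical copies and the counting included reads with several alignments, so that the split between them is uncertain. Their Control medians were 0.192 and 0.174 FPM. Under ALL, Prl2c2 reached 129.6 FPM in set 12 but stayed at 0.463, 0.248 and 0.219 FPM in sets 9, 11 and 16. Prl2c3 reached 61.1 FPM in set 12, and its log2 ratio was negative only in sets 9 (-0.20) and 15 (-0.28). Gria4, a glutamate receptor subunit, rose by 1.67 ± 0.24 from a Control median of 3.68 FPM, and the lncRNA Gm56730 by 1.28 ± 0.16 from 49.6 to 146 FPM in the median libraries. Among the falls, Scara5, a scavenger receptor for ferritin, had -1.47 ± 0.28, Ptn, the growth factor pleiotrophin, -1.02 ± 0.17, and Cpxm1, a carboxypeptidase-like secreted protein, -1.08 ± 0.15, each lower in all 9 pairs.

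The design also asked whether ALL differed from its component stressors. All these contrasts came from the same 38 endothelial libraries, with 9 Control, 10 HG + FFA, 9 AII + NA and 10 ALL libraries, and the comparisons with Control share the Control libraries, so that their values are set side by side. HG + FFA against Control had 111 DEG (0.647%), 43 higher (0.251%) and 68 lower (0.397%). AII + NA against Control had 0 DEG and 0 genes under the FDR threshold in edgeR or in DESeq2, with 1143 genes (6.67%) at an unadjusted p under 0.05 in edgeR.

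For Angptl4 the log2FC was 3.22 ± 0.31 under HG + FFA and -0.16 ± 0.30 under AII + NA. For Abca1 it was -1.10 ± 0.16 and 0.06 ± 0.16, for Mylip -1.20 ± 0.11 and -0.01 ± 0.11, and for Isg15 -0.81 ± 0.24 and -0.01 ± 0.25. The list of PPAR targets had a median of 0.94 under HG + FFA and -0.01 under AII + NA. The AII + NA values of Angptl4, Abca1, Mylip and Isg15 were smaller than their SE.

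Tested directly, ALL against HG + FFA had 0 DEG and 0 genes under the FDR threshold in either tool, with 881 genes (5.14%) at an unadjusted p under 0.05. For Angptl4 the difference was 0.00 ± 0.27, for Ech1 0.07 ± 0.07, for Mylip -0.02 ± 0.10 and for Abcg1, the widest among the called LXR targets, -0.40 ± 0.20. With such errors the test does not show that both exposures acted alike. ALL against AII + NA had 108 DEG (0.63%), 43 higher (0.251%) and 65 lower (0.379%). The departure of ALL from the sum of the component effects was called in 0 genes, again in neither tool, with 1444 genes (8.42%) at an unadjusted p under 0.05. Among receptors for the humoral stressors, Agtr1a lay in the 18 libraries between 0 and 4.98 FPM, Agtr1b did not exceed 1.06 FPM and Adra1d ran from 0.0646 to 43 FPM.

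**Figure D4:**
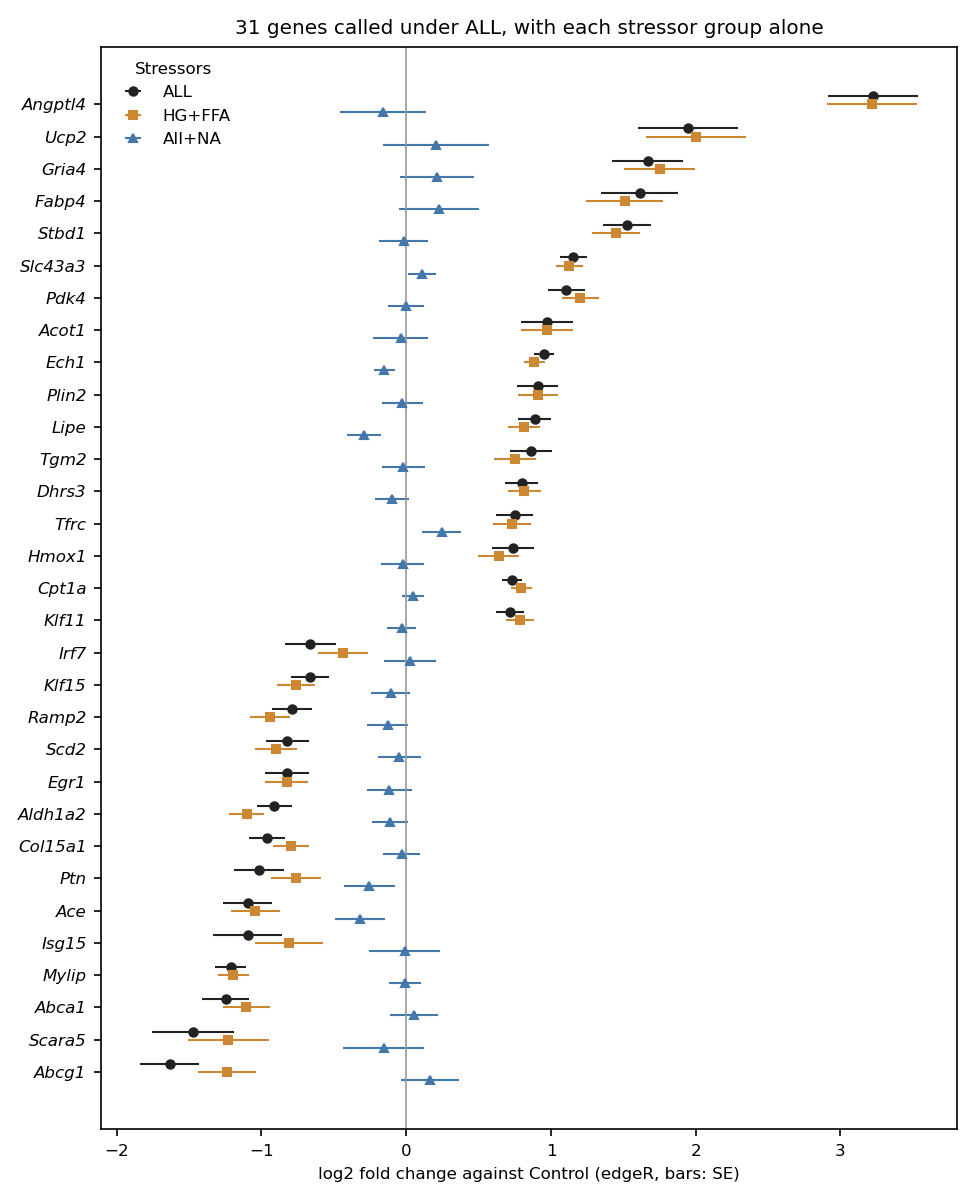
The log2FC against Control (points) with its SE (bars) for 31 genes called under ALL, under ALL (circles), HG + FFA (squares) and AII + NA (triangles). Squares lie beside circles from Angptl4 at 3.22 to Abcg1 at the lower end, and triangles lie near 0; the 3 contrasts share their Control libraries.

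The response to ALL was then compared with that of VSMC in a joint model of all 69 libraries, in which 20345 genes were tested. The VSMC were primary cells of the murine aorta, WT with 4 Control and 4 ALL libraries, or with a floxed Egfr gene deleted by Cre under the smooth muscle SM22 promoter (KO) with 4 Control and 3 ALL libraries. The labels put all EC in batch B2 and all VSMC in batch B1, so that cell type and batch cannot be told apart in these differences. The EC effect differed from the WT VSMC effect in 84 genes (0.413%), of which 70 were lower in EC (0.344%) and 14 higher (0.0688%). Of the 70, 69 had a positive log2FC in WT VSMC and 49 a negative one in EC. These signs are partly fixed by the selection of the 70, because a lower EC effect favours both. Of the 84, 19 had an FDR under 0.05 for the EC effect itself. The difference from KO VSMC was called in 0 genes. Under the FDR threshold alone it had 0 genes in edgeR and 5 in DESeq2, with 576 genes (2.83%) at an unadjusted p under 0.05 in edgeR. For Angptl4 this difference was 0.85 ± 0.55. With 3 ALL libraries of KO VSMC, the 0 calls do not show that EC and KO VSMC responded alike.

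The genes with the smallest p were mainly those that rose in WT VSMC. Itga8, the integrin alpha 8 subunit of contractile cells, had a log2FC of -0.39 ± 0.16 in EC and 1.75 ± 0.25 in WT VSMC, a difference of -2.14 ± 0.29 (FDR = 2.28e-05). Tnc, the matrix protein tenascin C, had -0.03 ± 0.15 in EC and 1.49 ± 0.22 in WT VSMC, and Lox, which cross-links collagen and elastin, -0.06 ± 0.07 and 0.75 ± 0.11. Flt1, a receptor for VEGF-A, had -0.41 ± 0.10 in EC and 0.82 ± 0.15 in WT VSMC. Ndnf, a secreted neurotrophic factor, was the only one of the 10 with a higher effect in EC, at 0.48 ± 0.14 against -1.0 ± 0.21. Of the 110 EC DEG only Eln and Izumo4, both named after their values had been seen, were among the 84.

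The lipid genes described above were not among the 84. Angptl4 had 3.22 ± 0.31 in EC, 1.29 ± 0.42 in WT VSMC and 2.37 ± 0.47 in KO VSMC, and its EC minus WT VSMC difference of 1.93 ± 0.51 had an FDR of 0.0659 in edgeR and 0.0233 in DESeq2. Without sets 9, 11 and 13 the difference was 2.55 with an edgeR FDR of 0.000453, which passed the threshold. Its Control level differed between the cell types, with medians of 14.2 FPM in EC and 313 FPM in WT VSMC in the joint normalization. For Ech1 the difference was 0.17 ± 0.14, for Cpt1a 0.20 ± 0.16, for Mylip -0.29 ± 0.19 and for Abca1 -0.47 ± 0.28. None of these 4 passed the test, and without sets 9, 11 and 13 their edgeR FDR was 0.311 or more, but with 4 WT VSMC sets the errors do not show that the cell types responded alike.

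**Figure D5:**
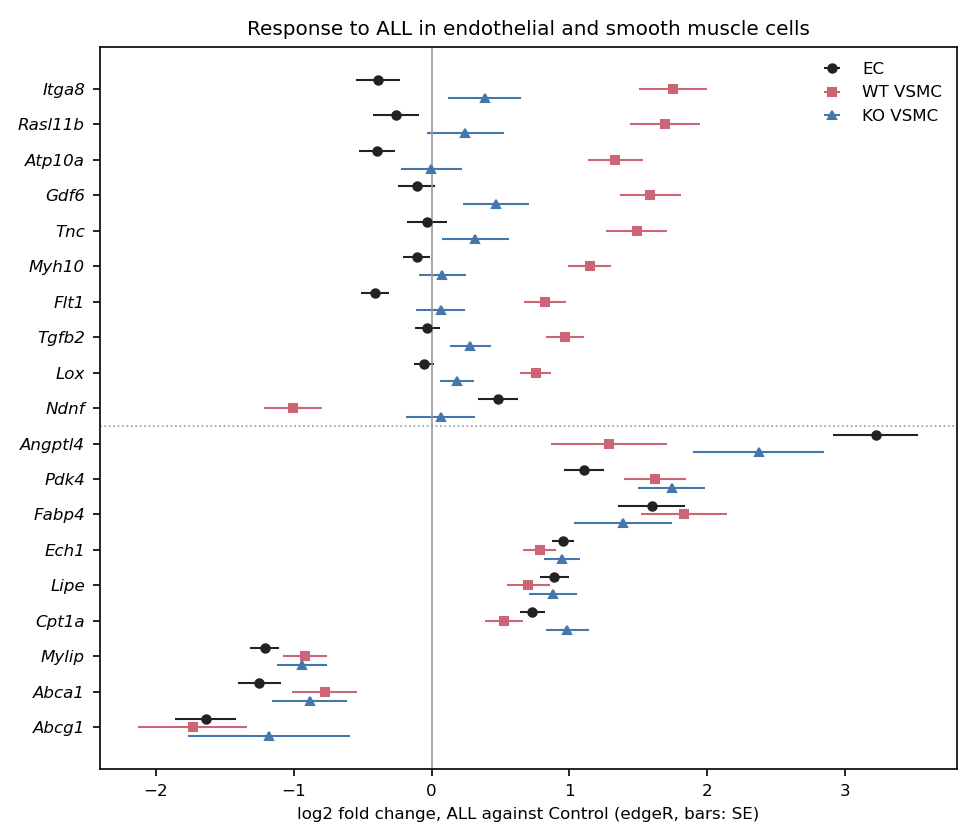
The log2FC of ALL against Control (points) with its SE (bars) in EC (circles), WT VSMC (squares) and KO VSMC (triangles), for the 10 genes whose EC and WT VSMC effects differed with the smallest p (above the dotted line) and for 9 genes called in EC (below it). Itga8 lies at 1.75 in WT VSMC and at -0.39 in EC, whereas the lipid genes lie on the same side of 0 in the 3 cell types.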

How the data were processed

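Poly(A) RNA of cultured EC and VSMC was sequenced. The authors aligned reads to mm39 with HISAT2 2.1.0, assigned them to exons with featureCounts, multi-mapping reads included, and deposited the raw count of reads per gene and library. The strand setting was not given in the sources used here. The analysis starts from these counts.

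R 4.3.3 with edgeR 4.0.16 and DESeq2 1.42.0 and Python 3.11.15 were used. For EC, all 38 libraries were filtered with filterByExpr, normalized by TMM and fitted with condition and set number, by edgeR's quasi-likelihood test and by DESeq2, with Benjamini-Hochberg adjustment over all genes tested. Printed log2FC and FDR are those of edgeR unless DESeq2 is named. The SE was derived from the edgeR fit, as the absolute log2FC divided by the square root of the quasi-likelihood F. For the comparison with VSMC all 69 libraries entered 1 model with a stressor effect per cell type. Log2 ratios of single pairs were taken with 0.1 FPM added. Replicates are separate sets, which the paper describes as cells of one animal and passage treated together, with sets 17 and 18 from the same animal. Same-numbered Control and ALL libraries deviated together, with correlations between 0.730 and 0.930 over 12327 genes, and every set correlated best with its own number. No duplicates were found among 162 library pairs, with a lowest chi-square per degree of freedom of 56.7.

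The libraries, the gene lists and the rule for named genes were chosen with earlier results of these data known. Named were the 20 rises and 10 falls with the largest size among DEG that moved the same way in all 9 pairs, called members of the lists or else their most abundant genes, cell type markers, receptors of the stressors, and the 10 genes that differed most clearly from WT VSMC. Not all of these appear in the text, some items are not reported here, and others are marked as chosen after their values were seen. Gene positions are from GENCODE on GRCm39, and identifiers absent from it took 0.0241% of the counts. Promoter sequences are from RefSeq on GRCm38.p6.

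The models were tested on simulated counts with known changes. Alternatives were each tool alone, DESeq2's size factors, other thresholds and filters, no replicate block, the animal as block, only the 18 libraries, complete sets, each set left out and, added after seeing the data, fits without sets 9, 11 and 13 or without sets 15 and 16.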

Additional observations from a re-analysis of the deposited data

Results flagged for a closer look

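For 52 named genes the log2 ratio of ALL to Control was compared over the 9 pairs, and in 4 of them 1 pair stood apart from the rest by Dixon's test at the 95% level, which chance alone gives in about 1 of 20 groups. Oasl2 had a log2 ratio of -1.84 in set 14, with the next pair at -0.92. Ppp1r3c had -3.30 in set 18, with the next at -1.01, and Vegfd, a lymphatic growth factor gene called lower at -0.70 ± 0.16 and named here for this pair, had -2.65 in set 18, with the next at -0.89. Zfp850, a zinc finger gene called higher at 0.88 ± 0.18, had 1.80 in set 17, with the next at 1.10. Without set 18 the log2FC of Vegfd was -0.43 and that of Ppp1r3c -0.58.

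The response to ALL differed between EC and WT VSMC by an interaction test in the 10 genes with the smallest p. The EC effect minus the WT VSMC effect was -2.14 for Itga8, -1.95 for Rasl11b, -1.73 for Atp10a, -1.69 for Gdf6, -1.52 for Tnc, -1.25 for Myh10, -1.23 for Flt1, -0.998 for Tgfb2, -0.81 for Lox and 1.49 for Ndnf, all on the log2 scale. Cell type and the labelled batch cannot be told apart in these values.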

How the results depend on the processing

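The count of 110 DEG for ALL against Control became 527 without a log2FC threshold, 32 with a threshold of 1, 180 without a filter on low counts (edgeR alone), 66 with only the 18 libraries of the pairs (29 higher and 37 lower, 60 shared with the 110) and 72 with complete sets only. It was 2 without the replicate block and 44 with the animal as the block (27 higher and 17 lower, 43 shared), and it ran from 89 to 138 when a set was left out, with 89 without set 14 or 15, 90 without set 13 and 138 without set 11. For HG + FFA the 111 became 592 without the threshold and 2 without the replicate block, and for ALL against AII + NA the 108 became 521 and 3, and 72 with complete sets only. The 84 genes that differed from WT VSMC became 133 with DESeq2 alone, 0 without the replicate block and 103 without sets 9, 11 and 13, and the 0 that differed from KO VSMC became 1 with DESeq2 alone. The other counts moved by at most 1.5 times under the alternatives run. The fit on the 18 libraries and the one with the animal as block used fewer libraries or fewer blocks; otherwise the causes were not tested. Alternatives were also read for 63 named genes, all with an edgeR FDR under 0.05 in the main fit. Named genes without it were left out. Their selection on the same libraries favours agreement between the fits. Of 1007 values for the 63 genes under alternatives, 0 changed sign and 858 kept their side of the FDR threshold. Of the 149 that lost it, 61 came without the replicate block, 36 from leaving out 1 set, 22 from the animal as block, 13 from the 18 libraries, 9 without sets 15 and 16, 7 without sets 9, 11 and 13 and 1 with DESeq2 alone.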

Other observations

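Of 20 tested genes of G2 and mitosis all 20 had a positive log2FC, against 8113 of all 17148 genes tested. Their median was 0.36, or 0.22 without sets 9, 11 and 13, but 0 were called and 0 had an FDR under 0.05 in edgeR. Top2a, the DNA topoisomerase of dividing cells, was at 31.2 FPM in the median Control and 44.5 FPM in the median ALL library, with a log2FC of 0.56 ± 0.17 (FDR = 0.0686), and Mki67, the proliferation marker Ki-67, at 17.1 and 20.9 FPM (0.39 ± 0.19, FDR = 0.31). Of 20 genes of DNA replication 19 had a positive log2FC with a median of 0.27. Rrm2, a subunit of ribonucleotide reductase with 43.3% of its exon length shared with another gene, was called higher (0.66 ± 0.18, FDR = 0.03), was higher in 7 of 9 pairs and lost its call in 5 of the 9 fits that left out a set. The genes of these lists share the cell cycle phase in which they are expressed and are not independent of each other.

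Among 11 ErbB receptor and ligand genes 0 were called and 10 had a negative log2FC, with a median of -0.28. Lrig1, a protein that degrades ErbB receptors, had -0.47 ± 0.08 (FDR = 0.000282), short of the size limit, and Egfr itself 0.06 ± 0.10. Of 13 hypoxia response genes 0 were called, and the 2 under the FDR threshold were Ndrg1, at -0.64 ± 0.08, just under the size limit with all 9 pairs lower, and Adm, the adrenomedullin gene, at 0.52 ± 0.10. Of 9 cardiomyocyte markers only 3 passed the expression filter, 0 were called, and 1 was at 0 FPM in all 18 libraries. The summed markers were at 7.24 to 318 FPM in Control and at 2.19 to 241 FPM under ALL. They were lower under ALL in 8 of 9 sets with a median log2 ratio of -0.40. Their part in the changes of other genes was not tested.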
